A study of Mus musculus with 38 samples.

Results

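Histone marks were followed over 5 genes of distal mouse chromosome 2 that form 3 loci: Gnas, Nnat with its host Blcap, and Mcts2 with its host H13. They are 5 of the 21938 protein-coding genes of GENCODE vM21 on the GRCm38 build. The genes were taken by name as imprinted genes and their hosts, and they were chosen on the WT and KO values of these same libraries, across all 30 ChIP lists. Every WT against KO value is therefore given as a description, with 0 tests. Gnas lies on the plus strand at chr2:174284320-174346744 (ENSMUSG00000027523). Nnat (plus strand, chr2:157560078-157562522, ENSMUSG00000067786) lies within the body of Blcap (minus strand, chr2:157556362-157571274, ENSMUSG00000067787). Mcts2 (plus strand, chr2:152687035-152687946, ENSMUSG00000042814) lies within the body of H13 (plus strand, chr2:152669461-152708670, ENSMUSG00000019188). Each gene's window is its body plus 5 kb on either side, so the Nnat window lies inside that of Blcap and the Mcts2 window inside that of H13. The values of a nested gene and its host share called regions and are not independent of each other.

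The study compared ES-E14TG2a mouse embryonic stem cells (mESCs) carrying both copies of IκBα, the NF-κB inhibitor encoded by Nfkbia (IκBα+/+, here WT), with cells in which it was knocked out by CRISPR-Cas9 (IκBα-/-, here KO). Both genotypes were grown in serum with leukemia inhibitory factor (LIF) and harvested at 0 h, undifferentiated. Per the methods each genotype had 3 independent clones, and the WT clones had received non-targeting guide RNAs. For each of 5 marks, 3 WT and 3 KO libraries were compared, 30 ChIP libraries of 38 samples in all, and the other 8 samples were input libraries.

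The lists hold called regions, not whole libraries. H3K4me3 was deposited as narrow peaks without read counts, 23059, 21836 and 23638 in the WT libraries and 23736, 26377 and 26806 in the KO. Its measure was therefore the number of base pairs (bp) of a window covered by peaks. The other marks were deposited as broad regions in 200 bp steps, 35979 to 76172 per library, with ChIP and input reads for each region. Their called regions held 8548342 to 12105343 ChIP reads for H3K9me3, 8910890 to 10938375 for H3K27me3, 22943091 to 28339766 for H3K27ac and 34736939 to 35951506 for H3K4me1. A region's reads were shared out by the length that overlapped a window and divided by the window's length, giving ChIP reads per kb. Neither measure was scaled to library totals, which differed by genotype. The length called over the genome was above every WT library in each KO library for H3K27me3 and H3K27ac. For H3K9me3 and H3K4me1 it was below every WT library in each KO library. Reads in H3K27me3 regions were also more in each KO library than in any WT library. A value of 0 means that no region was called, not that no read was there, and no fold is given against a group with a library at 0. Of 8 genes that mark pluripotent cells, 7 had an H3K27ac region and 6 an H3K4me3 peak at the start site in all 6 libraries of the mark, and 2 of the 8, Esrrb and Klf4, carried H3K27me3 in all 6. Of 10 genes of other cell types, all 10 carried H3K27me3 in all 6 libraries, 6 also had an H3K4me3 peak and 6 an H3K27ac region. Reads came from bulk cells and were not split by parental copy, so more cells with a mark, more marked copies per cell and more mark per copy cannot be told apart.

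Imprinted genes are expressed from 1 parental copy, and that choice is carried by DNA methylation laid down in the germ line. On the methylated copy, the zinc-finger protein ZFP57 binds the methylated hexamer TGCCGC and brings in KAP1 and the methyltransferase SETDB1, which trimethylates H3K9. H3K4me3 marks active or poised starts, H3K27me3 is the mark of Polycomb repressive complex 2, H3K4me1 lies at enhancers and around promoters, and H3K27ac at active ones. Nnat, Mcts2, the XL transcript of Gnas, the exon 1A transcript of Gnas and the antisense RNA Nespas are known as paternally expressed, with methylation on the maternal copy. The Nesp transcript of Gnas is maternally expressed. The Gs alpha transcript of Gnas, Blcap and H13 are expressed from both copies in most tissues or as isoforms that differ between the copies.

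The sequences show the bases just before the starts on which the results turn, each read from the RefSeq GRCm38 genome on the gene's own strand, with any TGCCGC or its reverse complement GCGGCA in capitals. The first pair precede starts that an H3K9me3 region covered in all 3 WT libraries and in 0 KO libraries: Nnat (chr2:157559828-157560077, plus strand) and Mcts2 (chr2:152686785-152687034, plus strand). The Nnat stretch overlaps the first exon of a noncoding Blcap transcript on the other strand, and the other stretches overlap no annotated exon.
Nnat: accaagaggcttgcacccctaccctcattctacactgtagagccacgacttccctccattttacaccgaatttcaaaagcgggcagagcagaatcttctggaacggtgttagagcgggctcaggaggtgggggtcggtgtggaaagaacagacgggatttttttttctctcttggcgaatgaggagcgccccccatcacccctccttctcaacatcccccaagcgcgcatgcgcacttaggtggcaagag
Mcts2: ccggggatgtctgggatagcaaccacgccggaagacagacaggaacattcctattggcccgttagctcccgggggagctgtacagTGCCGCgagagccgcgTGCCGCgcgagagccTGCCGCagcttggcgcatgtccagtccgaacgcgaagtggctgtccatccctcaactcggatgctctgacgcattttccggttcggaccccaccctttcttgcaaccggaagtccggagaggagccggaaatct

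The next 3 are the comparison. Gnas exon 1A (chr2:174327320-174327569, plus strand) precedes an imprinted start with no H3K9me3 region in any library. Blcap (chr2:157566362-157566611, minus strand) and H13 (chr2:152669211-152669460, plus strand) precede the main starts of the host genes. The Blcap stretch lay under an H3K9me3 region in 2 WT libraries and 0 KO libraries, and the H13 stretch in no library.
Gnas exon 1A: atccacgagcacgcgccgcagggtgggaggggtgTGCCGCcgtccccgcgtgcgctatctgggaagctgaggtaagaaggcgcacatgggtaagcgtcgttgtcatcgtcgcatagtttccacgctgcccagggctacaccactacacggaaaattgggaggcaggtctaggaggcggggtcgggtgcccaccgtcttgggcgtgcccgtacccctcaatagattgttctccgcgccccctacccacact
Blcap: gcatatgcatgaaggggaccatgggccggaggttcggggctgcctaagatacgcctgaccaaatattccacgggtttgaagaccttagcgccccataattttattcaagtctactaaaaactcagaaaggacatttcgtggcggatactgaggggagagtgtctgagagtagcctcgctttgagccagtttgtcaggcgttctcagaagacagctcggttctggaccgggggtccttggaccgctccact
H13: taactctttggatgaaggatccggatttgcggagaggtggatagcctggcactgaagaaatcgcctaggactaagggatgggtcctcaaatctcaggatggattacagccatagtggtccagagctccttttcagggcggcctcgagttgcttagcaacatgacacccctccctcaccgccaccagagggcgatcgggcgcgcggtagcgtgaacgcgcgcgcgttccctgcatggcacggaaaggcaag

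Among these 250-base stretches the hexamer occurred 3 times before Mcts2, 1 time before exon 1A and 0 times before Nnat, Blcap and H13. Of 32817 RefSeq promoters, 8.68% held it at least once in the same 250 bases and 0.0731% at least 3 times. CpG dinucleotides numbered 12 before Nnat, 24 before Mcts2, 23 before exon 1A, 12 before Blcap and 18 before H13, against a median of 6 over the promoters. The 250 bases before the XL start, not printed, lay under an H3K9me3 region in 3 WT and 0 KO libraries. They held 0 copies of the hexamer and 6 CpG. A further stretch, upstream of the XL start, was picked for its hexamer count and is not comparable with the others. It is the 200 exon-free bases of the WT H3K9me3 region with the most copies (chr2:174295777-174295976, plus strand). These held 3, the first pair overlapping by 2 bases.
Gnas, Nespas side: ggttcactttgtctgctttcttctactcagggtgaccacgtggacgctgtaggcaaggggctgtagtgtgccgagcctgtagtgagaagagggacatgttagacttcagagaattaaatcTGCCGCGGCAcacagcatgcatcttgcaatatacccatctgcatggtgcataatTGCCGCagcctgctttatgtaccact

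Over the whole stretch called for H3K9me3 in all 3 WT libraries, the hexamer was present 9 times in 12.4 kb at Nnat (0.726 per kb), 3 times in 11.4 kb at Mcts2 (0.263 per kb) and 14 times in 15.8 kb at Gnas XL (0.886 per kb). Of the 2021 such stretches of at least 10 kb in the genome, whose median was 0.0877 per kb, 4 had as high a density as Nnat, 257 as Mcts2 and 3 as Gnas XL, each count including the locus itself. Of the 9 copies at Nnat, 6 lay within 1 kb of its start, as did all 3 at Mcts2. Of the 14 at Gnas XL only 1 lay within 1 kb of the XL start. CpG density was 20.8 per kb at Nnat, 17.8 at Mcts2 and 27.7 at Gnas XL, against a median of 9.07 over the same stretches. These are counts of letters and were not tied to binding of any protein.

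Across the 5 genes, H3K9me3 was lower in the KO, H3K4me3 covered more bp in the KO, and the other marks differed from gene to gene. For H3K9me3 all 3 KO libraries were below all 3 WT libraries in 5 of 5 windows, against 6.76% of all 21938 genes. For H3K4me3 all KO libraries were above all WT libraries in 5 of 5 windows, where 16.9% of genes stood that way. For H3K4me1 the KO libraries were above the WT in 4 of 5, all but Gnas (14.0% of genes), and for H3K27me3 in 3 of 5, namely Gnas, Nnat and Blcap (10.5% of genes). For H3K27ac the groups overlapped in all 5, while over all genes the KO was above the WT in 18.3% and below it in 8.16%. The genes were chosen on these values, so nothing is read from the counts. Over all genes called in 6 of 6 libraries the median log2 KO/WT was 0.13 for H3K4me3, -0.10 for H3K9me3, 0.07 for H3K27me3, 0.13 for H3K27ac and -0.06 for H3K4me1.

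**Figure D1:**
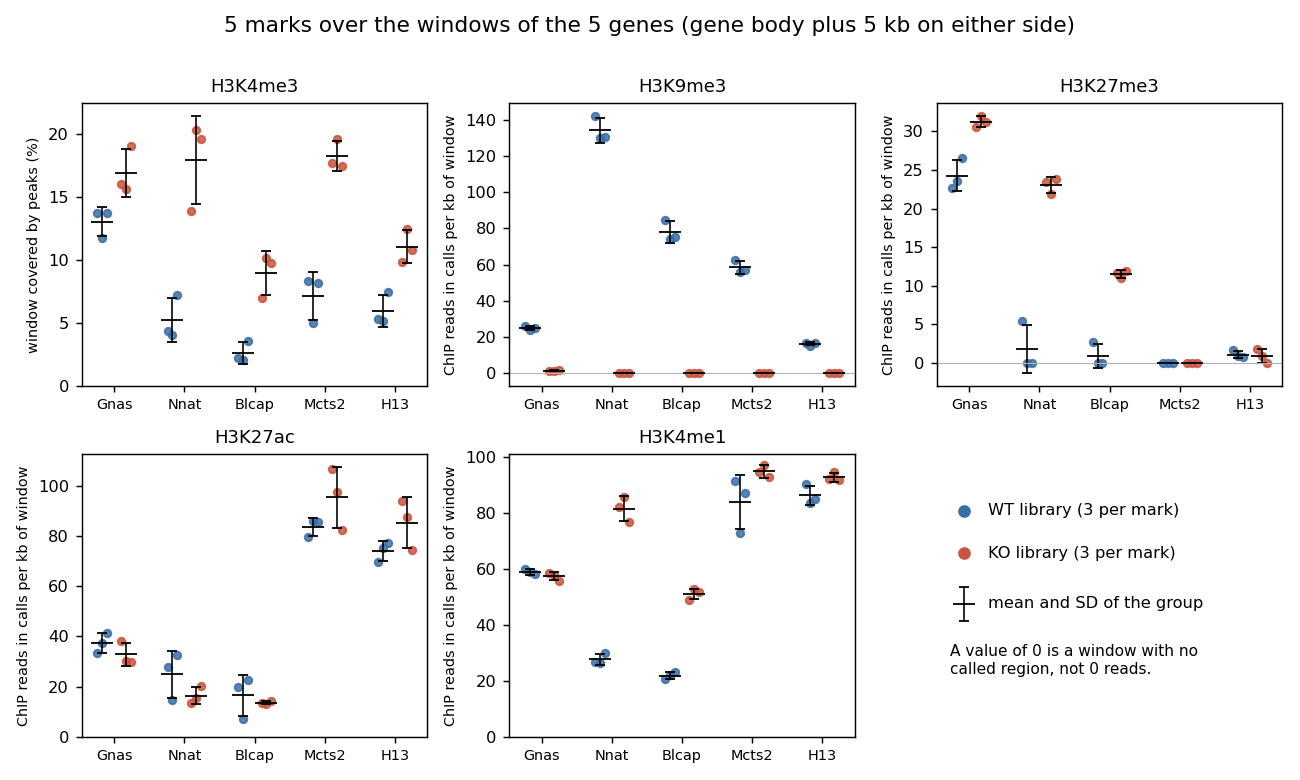
Values of the 5 marks in each library over each gene's window: percent of the window covered by peaks for H3K4me3, ChIP reads in called regions per kb for the others. Blue dots are WT, red dots KO, 3 each, with mean and SD. The H3K9me3 panel shows the KO libraries at 0 for every gene except Gnas, where they sit between 1.23 and 1.41 reads per kb.

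Nnat encodes neuronatin, a small membrane proteolipid best known from developing brain. It lay under 1 H3K9me3 region in each WT library and under none in any KO library. The window values were 142, 130 and 131 ChIP reads per kb in the WT (134 ± 6.87, SD, n = 3). The region was 12.8, 13.6 and 14.2 kb long and held 2112, 1845 and 1873 ChIP reads, with a log2 enrichment over input of 3.03, 2.93 and 3.02. It spanned the whole Nnat body in each WT library. The 3 WT libraries lay close together, and none of the KO libraries had a region to compare with them.

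H3K4me3 at Nnat went the other way. Within 1 kb of the Nnat start, peaks covered 0, 0 and 283 bp in the WT and 1034, 1247 and 1213 bp in the KO. The single WT peak had a fold enrichment of 4.86, and the highest peak of each KO library had 6.13, 5.11 and 8.54. Every KO library therefore had a peak at the Nnat start, against 1 of 3 WT libraries, and the covered lengths did not overlap. A further peak of 352 and 304 bp inside the Nnat body was called in KO 2 and KO 3 and in no other library.

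The Polycomb mark H3K27me3 was also called at Nnat mainly in the KO. Window values were 5.38, 0 and 0 reads per kb in the WT and 23.4, 21.9 and 23.9 in the KO (23.1 ± 1.00, SD, n = 3). The KO regions were 7.0, 5.6 and 6.4 kb long and held 291, 273 and 297 ChIP reads, and the single WT region was 2.2 kb with 67 reads. All 3 KO regions covered the Nnat body plus 1 kb on either side in full and lay wholly inside the stretch that carried H3K9me3 in the WT.

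H3K4me1 at Nnat was 26.7, 26.4 and 29.8 reads per kb in the WT and 82.1, 85.8 and 76.7 in the KO, 2.95-fold higher in the mean. Within 1 kb of the start it was 0, 15.0 and 26.9 in the WT and 118, 124 and 89.0 in the KO, so the groups did not overlap at either width. H3K4me1 regions covered 0, 540 and 940 bp of these 2063 bp in the WT and all of them in each KO library. H3K27ac overlapped between the groups, at 27.8, 14.5 and 32.6 reads per kb in the WT and 13.5, 15.6 and 20.2 in the KO. An H3K27ac region reached within 1 kb of the main Nnat start in WT 1 and WT 3, and in none of the other 4 libraries. Both regions were weak, with a fold over input of 1.34 and 1.22.

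**Figure D2:**
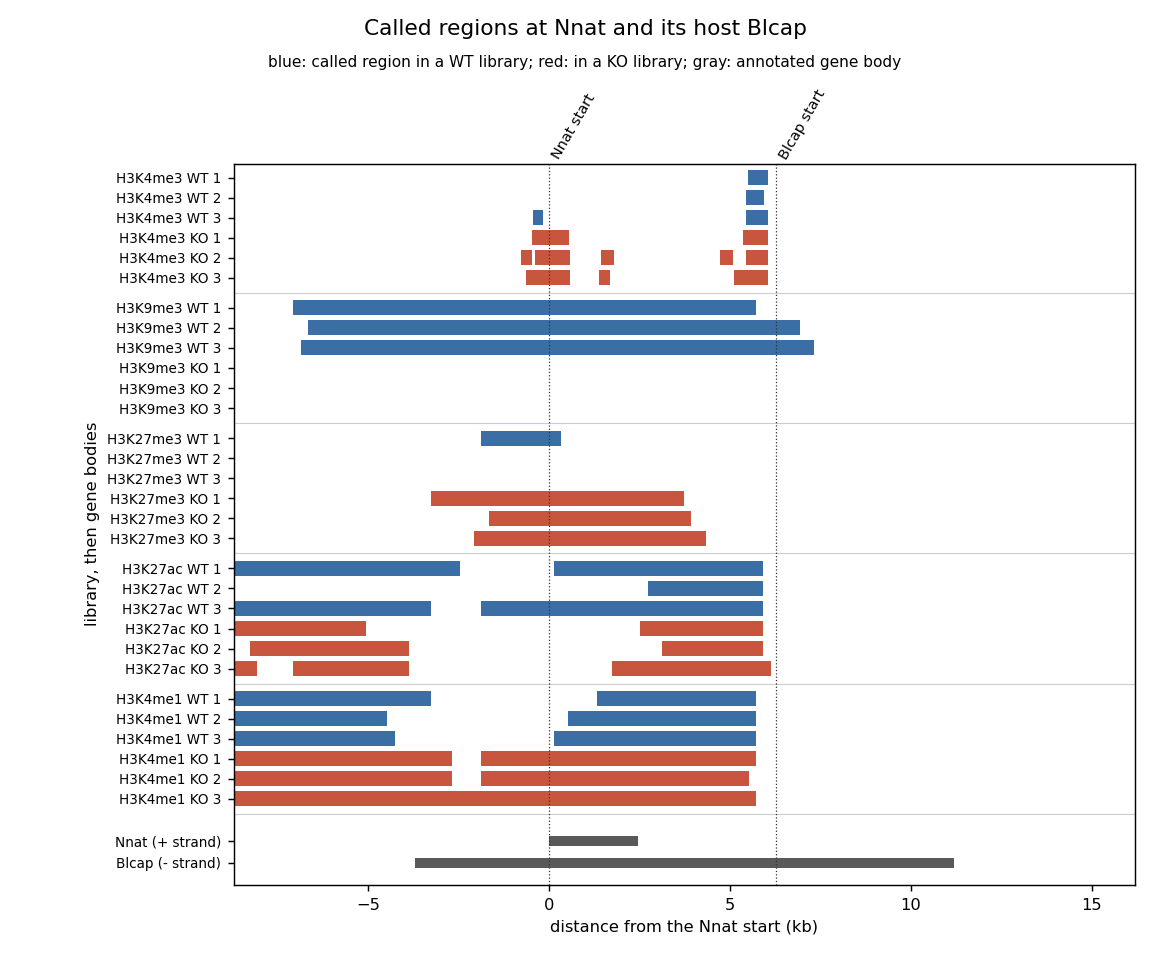
Called regions of 5 marks in 6 libraries each over the Blcap window, by distance from the Nnat start in kb. Blue bars are WT regions, red bars KO regions and gray bars gene bodies. The 3 WT H3K9me3 bars of 12.8 to 14.2 kb cross Nnat and have no KO counterpart, and the H3K27me3 bars over Nnat are those of 3 KO libraries and WT 1.

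Blcap, the host, encodes a small protein first described as reduced in bladder cancer. Its 24.9 kb window contains in full the H3K4me3, H3K27me3 and H3K9me3 regions described for Nnat. Some H3K4me1 and H3K27ac regions run past its edge. Its H3K9me3 values of 84.8, 74.1 and 75.2 reads per kb in the WT come from the same H3K9me3 regions. Those regions ended beyond the main Blcap start in WT 2 and WT 3 and short of it in WT 1. Within 1 kb of that start H3K9me3 was 38.2, 112 and 132 reads per kb in the WT, with no region in the KO. H3K4me3 there covered 541, 506 and 612 bp in the WT and 696, 591 and 784 bp in the KO, which overlap, and the highest fold enrichment was 11.0, 8.51 and 11.2 in the WT against 7.71, 6.12 and 4.02 in the KO. The Blcap peak was thus called in all 6 libraries with more fold in each WT library than in any KO library, unlike the peak at the Nnat start.

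The nested gene and the rest of its host window were then set side by side. Inside Nnat (body plus 1 kb on either side, 4445 bp), H3K9me3 stood at 165, 136 and 132 reads per kb in the WT, and over the other 20468 bp of the Blcap window at 67.4, 60.7 and 62.9. The WT log2 ratio of inside to outside was 1.18, and 1.17 from bp covered alone. It thus reflects how much of each part the region covered. The inside was 100% covered in each WT library and the outside 40.8%, 44.7% and 47.7%. H3K27me3 in the KO was 41.6, 48.8 and 46.4 reads per kb inside and 5.19, 2.75 and 4.43 outside. H3K4me3 in the KO covered 23.3%, 36.0% and 34.1% inside and 3.40%, 4.55% and 4.48% outside, and in the WT 0%, 0% and 6.37% inside and 2.64%, 2.47% and 2.99% outside. H3K4me1 differed between the groups on both sides, with means of 36.3 in the WT and 110 in the KO inside, and 18.7 and 38.3 outside. Because a region's reads are spread evenly over its length, a value inside reflects the region's mean and not a local height.

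Mcts2 is an intronless copy of a gene for a translation factor and lies in an intron of H13. In each WT library 1 H3K9me3 region covered it and in the KO none was called. Window values were 62.3, 55.9 and 57.0 reads per kb in the WT (58.4 ± 3.45, SD, n = 3). The region was 11.8, 11.4 and 12.4 kb long with 822, 742 and 824 ChIP reads and a log2 enrichment over input of 1.66, 1.75 and 1.95. The enrichment was below that at Nnat in each of the 3 libraries.

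H3K4me3 was already present at Mcts2 in the WT and covered more in the KO. Within 1 kb of the start, peaks covered 797, 542 and 645 bp in the WT (661 ± 128, SD, n = 3) and 1153, 1323 and 1373 bp in the KO (1283 ± 115, SD, n = 3). The highest fold enrichment was 7.00, 5.16 and 6.77 in the WT and 9.79, 7.13 and 11.0 in the KO. Each KO library also had a separate peak of 304, 419 and 415 bp just upstream of the start, called in 0 of 3 WT libraries. The covered lengths of WT and KO at Mcts2 did not overlap. In contrast to Nnat, Mcts2 had no H3K27me3 region in any of the 6 libraries.

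The active marks spanned Mcts2 in both genotypes. H3K27ac covered 100% of its window in all 6 libraries, at 79.7, 85.9 and 85.8 reads per kb in the WT and 107, 97.5 and 82.6 in the KO, which overlap. H3K4me1 was 91.2, 72.8 and 87.2 in the WT and 94.5, 97.1 and 92.8 in the KO, groups that do not overlap and whose means differ 1.13-fold. Both H3K4me1 regions stopped close to the Mcts2 start, leaving a gap there in all 6 libraries. Over the gene body alone the H3K4me1 difference turned, with a log2 KO/WT of -0.32.

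**Figure D3:**
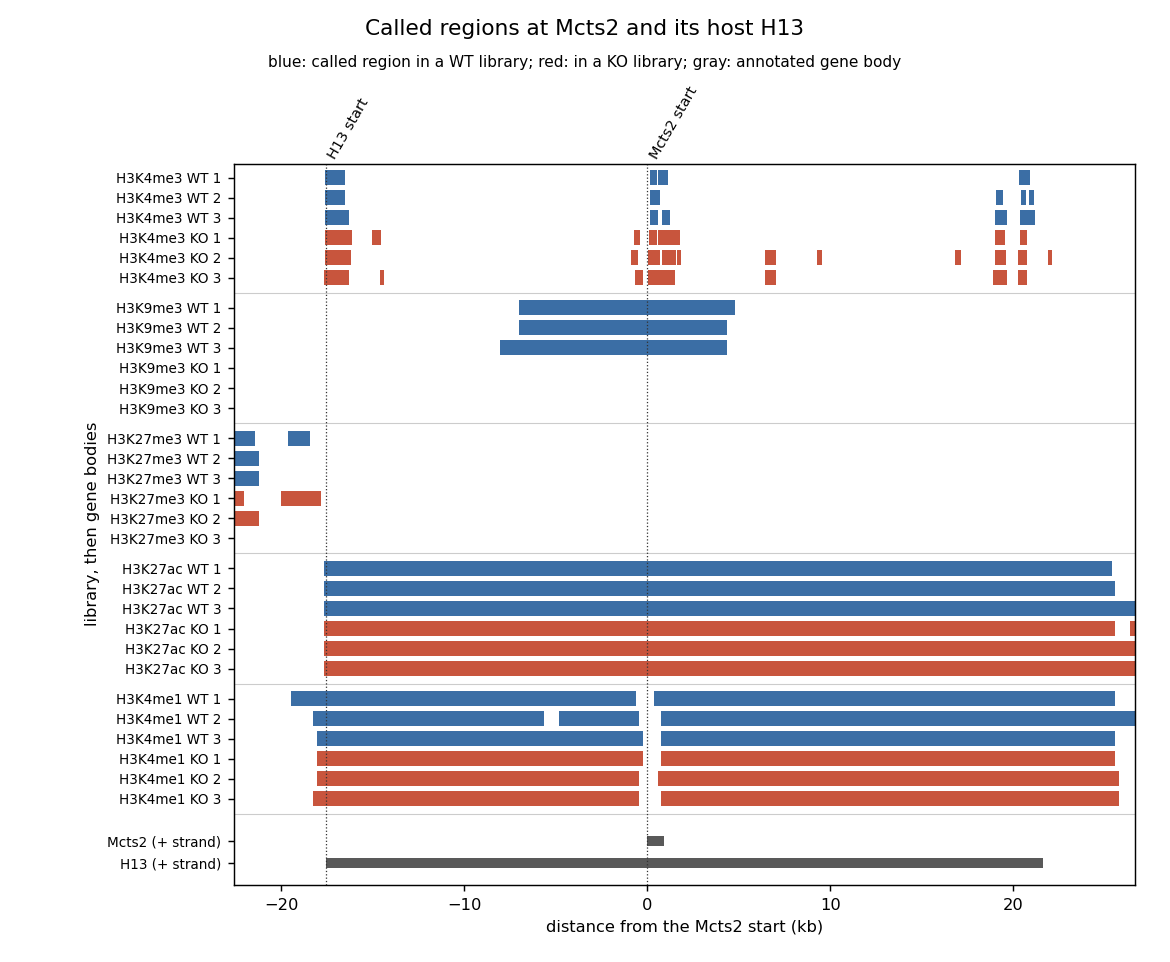
Called regions of 5 marks in 6 libraries each over the H13 window, by distance from the Mcts2 start in kb, drawn as for Nnat. The H3K9me3 bars of 11.4 to 12.4 kb surround Mcts2 in the 3 WT libraries and do not reach the H13 start, where an H3K4me3 bar stands in all 6 libraries.

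H13 encodes signal peptide peptidase, an intramembrane protease of the endoplasmic reticulum. Its own start, upstream of Mcts2, had no H3K9me3 region in any library. H3K4me3 at the H13 start covered 1097, 1075 and 1111 bp in the WT and 1106, 1119 and 1143 bp in the KO, which overlap at this width, while the highest fold enrichment was 6.04, 8.74 and 8.73 in the WT and 12.1, 11.9 and 16.7 in the KO. The covered length at the H13 start therefore overlapped between the groups and the fold was higher in each KO library. Over the whole H13 window, H3K4me3 covered 2599, 2545 and 3661 bp in the WT and 4844, 6119 and 5321 bp in the KO.

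Inside Mcts2 (2912 bp) H3K9me3 in the WT was 69.7, 65.1 and 66.5 reads per kb. Over the other 46298 bp of the H13 window it was 13.4, 11.9 and 13.6. The log2 ratio was 2.37, and also 2.37 from bp covered alone, so it too reflects the covered shares. H3K4me3 covered 31.3%, 18.6% and 30.5% of the inside in the WT and 66.2%, 73.3% and 65.4% in the KO. Outside it covered 3.65%, 4.33% and 5.99% in the WT and 6.30%, 8.61% and 7.38% in the KO. The groups did not overlap on either side, and the difference of the mean percentages was larger inside. H13 had H3K27me3 only upstream of its start, where 3 WT and 2 KO libraries had a region, and the window values overlapped between the groups.

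Gnas encodes the stimulatory G protein alpha subunit and, from starts further upstream, the secretory protein NESP55 and the long variant XL. Its 72.4 kb window had H3K9me3 of 25.9, 23.6 and 24.6 reads per kb in the WT (24.7 ± 1.16, SD, n = 3) and 1.23, 1.31 and 1.41 in the KO (1.32 ± 0.0912, SD, n = 3), a log2 KO/WT of -4.23. Most WT reads came from 1 region of 15.8, 17.4 and 16.2 kb with 1630, 1532 and 1475 ChIP reads and a log2 enrichment over input of 2.53, 2.46 and 2.64. This region covered the upstream Nespas start and the XL start in all 3 WT libraries and was called in 0 of 3 KO libraries. An intronic region of 91 and 98 reads was called in WT 1 and WT 3 only. The KO values came from other places in the window. KO 1 and KO 2 had a region of 89 and 95 reads at the 3' end of Gnas, where the WT libraries held 158, 147 and 147 reads, and KO 3 had one of 229 reads that crossed the upstream edge of the window, where WT 2 and WT 3 had 93 and 102.

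The starts of Gnas differed from each other. No H3K9me3 region came within 1 kb of the Nesp, exon 1A or Gs alpha starts in any of the 6 libraries. At the XL start H3K9me3 was 103, 88.0 and 91.0 reads per kb in the WT. H3K4me3 covered 419, 97 and 0 bp there in the WT and 933, 475 and 871 bp in the KO. The KO coverage at the XL start thus lay above the WT in every library, over a start without a peak in WT 3. With 2 kb on either side of the start, where all 3 WT libraries had a peak, the log2 KO/WT was 0.89. With 500 bp on either side the groups overlapped, at 304, 0 and 0 bp in the WT and 218, 88 and 316 bp in the KO.

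At the Nesp start H3K4me3 covered 957, 925 and 863 bp in the WT and 1214, 1721 and 1913 bp in the KO. H3K27me3 was 13, 16.3 and 29.7 reads per kb at this start in the WT, from a region of 94, 99 and 133 reads that was called in 0 of 3 KO libraries. That region was weak, with a fold over input of 1.26, 1.44 and 1.66. It began downstream of the Nesp start in WT 1 and WT 2 and spanned it in WT 3 only. A weak Polycomb region near the Nesp start was thus called in the WT only, and H3K4me3 was wider in the KO. At the upstream Nespas start, which lies in the same H3K9me3 region as XL, H3K4me3 covered 1690, 1796 and 1836 bp in the WT and 1936, 1868 and 1810 bp in the KO, which overlap. The highest fold enrichment there was 5.90, 6.10 and 6.31 in the WT and 11.1, 9.19 and 8.21 in the KO.

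Exon 1A stood apart from the other imprinted starts. H3K4me3 covered 1561, 1359 and 1405 bp there in the WT (1442 ± 106, SD, n = 3) and 499, 795 and 1072 bp in the KO (789 ± 287, SD, n = 3). The highest fold enrichment was 9.64, 9.09 and 7.67 in the WT and 4.17, 5.96 and 5.37 in the KO. On both measures every KO library was below every WT library, where within the same 1 kb at Nnat, Mcts2 and XL every KO library covered more than every WT library. H3K27me3 at exon 1A was 68.0, 64.5 and 65.5 reads per kb in the WT and 64.6, 62.2 and 60.1 in the KO, which overlap. With 2000 bp on either side of the start in place of 1 kb, H3K4me3 at exon 1A covered 2495, 2125 and 2328 bp in the WT and 1216, 1795 and 1852 bp in the KO, still without overlap. With 500 bp on either side it covered 1062, 1045 and 958 bp in the WT and 499, 703 and 983 bp in the KO, so KO 3 was above WT 3 and the groups overlapped. At the Gs alpha start, just downstream, H3K4me3 overlapped, with 1862, 1609 and 1674 bp in the WT and 1488, 1907 and 1597 bp in the KO.

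**Figure D4:**
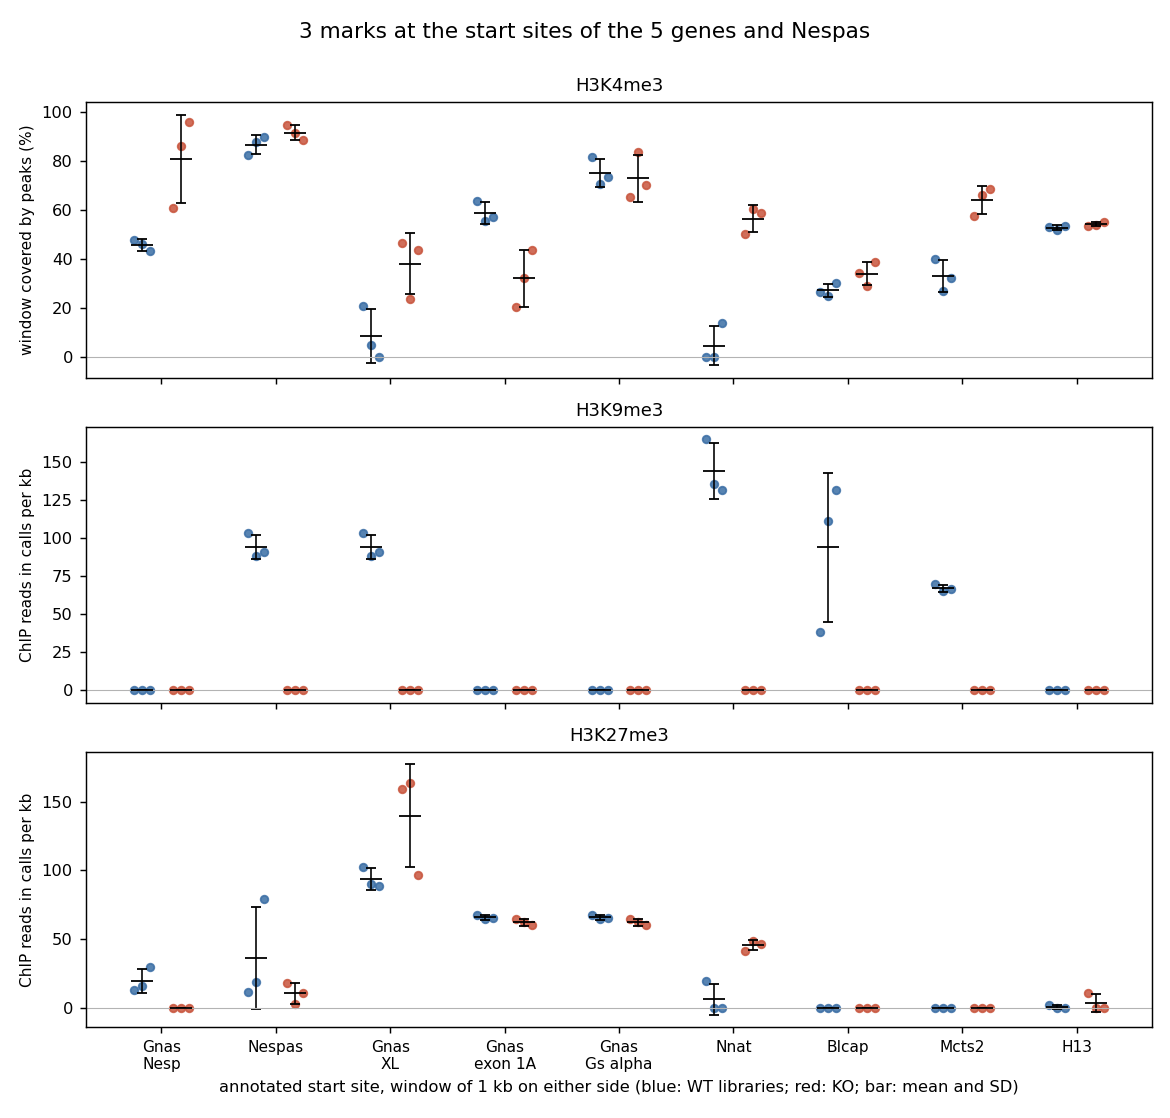
H3K4me3 coverage in percent, H3K9me3 and H3K27me3 ChIP reads per kb within 1 kb of 9 annotated starts. Blue dots are WT, red dots KO, 3 each, with mean and SD. H3K9me3 stands above 0 at Nespas, XL, Nnat, Blcap and Mcts2 in the WT only, and exon 1A is the start where each KO library has less H3K4me3 than each WT library at this width.

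H3K27me3 over Gnas formed a domain at XL and one over exon 1A and Gs alpha. The XL domain, in 1 or 2 pieces, held 718, 683 and 725 ChIP reads in the WT (709 ± 22.5, SD, n = 3) and 1169, 1243 and 1198 in the KO (1203 ± 37.3, SD, n = 3), over 8400, 7600 and 8200 bp in the WT and 9000, 10400 and 12400 bp in the KO. Over the fixed stretch that carried H3K9me3 in all 3 WT libraries, the KO mean of reads per kb was 1.47-fold that of the WT. The exon 1A domain held 829, 929 and 1061 reads in the WT and 1047, 1008 and 1045 in the KO, which overlap. Within 1 kb of the XL start the groups overlapped, at 103, 89.9 and 88.4 reads per kb in the WT and 159, 163 and 96.6 in the KO. The KO 3 region ran on for 12.4 kb in 1 piece, where KO 1 and KO 2 had a gap, and reads are spread evenly over a region's length. Over the whole window H3K27me3 was 22.7, 23.6 and 26.5 reads per kb in the WT and 30.6, 32.0 and 31.2 in the KO, which do not overlap. In bp covered, the WT and KO windows of Gnas overlapped for H3K27me3.

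The enhancer marks over Gnas differed in both directions, region by region. H3K4me1 around XL held 529, 529 and 513 reads in the WT and 775, 765 and 708 in the KO. In the intron between XL and exon 1A, an H3K4me1 region held 449, 471 and 502 reads in the WT and 263, 281 and 259 in the KO, and H3K27ac was called there in 3 of 3 WT libraries with 374, 339 and 356 reads and in KO 1 only with 242. These intronic regions were thus weaker or uncalled in the KO. From exon 1A downstream, H3K27ac held 595, 646 and 638 reads over 10400, 10400 and 9600 bp in the WT and 309, 335 and 286 reads over 4000, 4400 and 4000 bp in the KO. H3K4me1 from exon 1A to the end of the gene held 1759, 1697 and 1684 reads in the WT and 1506, 1436 and 1375 in the KO. A last H3K27ac region in the 3' part of the gene was called in 3 WT and 0 KO libraries. Over the whole window, bp covered by H3K27ac was 38881, 35681 and 38881 in the WT and 28481, 22281 and 21881 in the KO, while ChIP reads per kb overlapped (33.5, 37.5 and 41.3 against 38.3, 30.3 and 29.8). Upstream of XL the H3K27ac region was up to 47.0 kb long and extended beyond the window, so its reads count there by overlapped length.

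**Figure D5:**
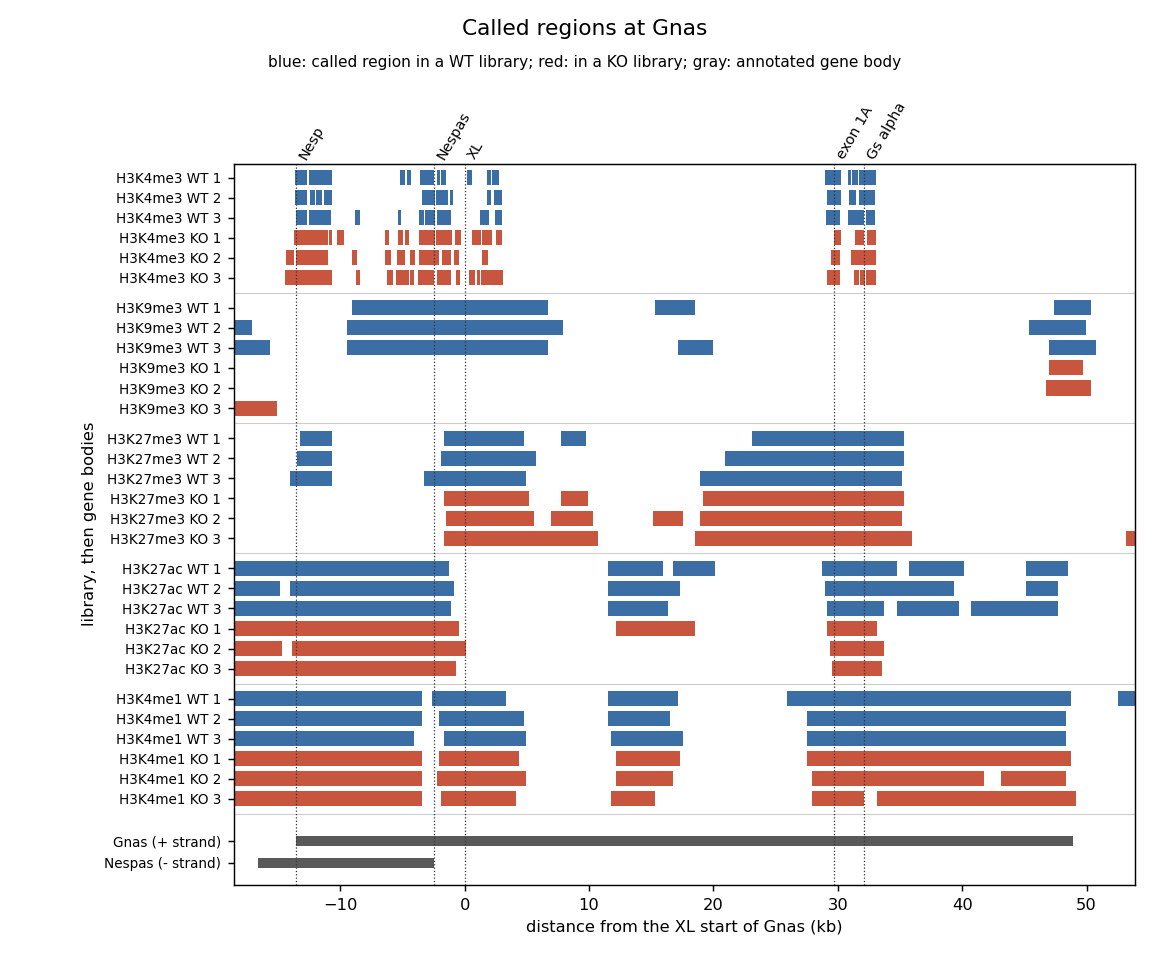
Called regions of 5 marks in 6 libraries each over the Gnas window, by distance from the XL start in kb, drawn as for Nnat, with dotted lines at the Nesp, Nespas, XL, exon 1A and Gs alpha starts. The WT H3K9me3 bars of 15.8 to 17.4 kb cross Nespas and XL and have no KO counterpart, while both genotypes carry H3K27me3 across exon 1A.

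The stretch called for H3K9me3 in all 3 WT libraries was compared across the 3 loci for the marks that did not define it. H3K4me3 covered 2.85% ± 1.51 (SD, n = 3) of it in the WT and 15.4% ± 3.60 in the KO at Nnat, 6.85% ± 1.81 and 17.4% ± 1.11 at Mcts2, and 23.6% ± 3.60 and 39.6% ± 6.35 at Gnas XL. Each KO library was above each WT library at all 3 loci. H3K27me3 went from 5.40, 0 and 0 reads per kb in the WT to 23.5, 22.0 and 24.0 in the KO at Nnat, from 41.6, 43.2 and 45.9 to 68.6, 72.3 and 51.4 at Gnas XL, and had no region at Mcts2. H3K4me1 was 2.60-fold higher in the KO mean at Nnat, 1.16-fold at Mcts2 and 1.28-fold at Gnas XL, with no overlap of the groups at any of the 3. H3K27ac overlapped between the groups at Nnat, with means of 28.1 reads per kb in the WT and 21.1 in the KO, and at Mcts2, with 83.8 and 95.5, and was higher in each KO library at Gnas XL, with 46.0 and 60.0. H3K27me3 covered 7400 bp of the Gnas XL stretch in the mean of both genotypes, so there the groups differed in reads and not in length.

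An H3K9me3 region in 3 of 3 WT and 0 of 3 KO libraries was found for 4 of the 5 genes, all but Gnas, whose wider window held other regions. Of all 21938 genes 1.19% met this, and of the 7646 genes with a region in 3 of 3 WT libraries 3.40% did. Among the 58 other protein-coding genes with windows within 500 kb of the 3 loci, 0 met it, 19 had a region in all 3 WT libraries, and the median log2 KO/WT of those with a region in all 6 was 0.02. In the neighbours the KO was below the WT without overlap for H3K9me3 in 4 genes and above it in 2. Over all genes these shares were 6.76% and 3.12%. One of those 4, Gm20721, has a window that overlaps that of 1 of the 5 genes.

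Of 33 imprinted genes on other chromosomes, listed with earlier results known, 26 had H3K9me3 regions in all 3 WT libraries. In 21 of the 33 every KO library was below every WT library and in 0 above, against 6.76% and 3.12% of all genes. The median log2 KO/WT was -1.29 over those with a region in all 6. Mest, Nap1l5, H19 and Meg3 had a region in 3 WT and 0 KO libraries. For H3K27me3, 18 of the 33 had the KO above the WT and 3 below, against 10.5% and 7.01% of all genes. For H3K4me3 the counts were 15 and 1, against 16.9% and 5.01%. For H3K27ac they were 12 and 6, against 18.3% and 8.16%. For H3K4me1 they were 15 and 11, against 14.0% and 24.2%. No test of a difference between that list and the 5 genes was made.

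The genes with the pattern nearest to each imprinted gene were ranked by the mean absolute difference of covered percent of the window over the 30 libraries. For Mcts2 they were Zrsr1 (6.69 percentage points), Cdca5 (7.04) and Kmt2b (7.25). Zrsr1, an imprinted retrogene that like Mcts2 lies in an intron of another gene, had 90.1% of its window under H3K9me3 in the WT and 6.42% in the KO, against 87.1% and 0% for Mcts2. For Nnat the nearest were Peg10 (16.8), an imprinted gene derived from a retrotransposon, Zfp787 (17.8) and Zfp30 (18.2), and with the gene body alone Nap1l5 (20.9), which had 100% H3K9me3 coverage in the WT and 0% in the KO. For Gnas they were Lmo4 (7.71), Zfp689 (8.41) and Bcl11a (8.63). H3K9me3 covered 0% of the Lmo4 window in both genotypes, 13.3% of the Zfp689 window in the WT and 11.3% in the KO, and 3.13% of the Bcl11a window in both, so none of them had the Gnas difference of 32.8% in the WT and 4.55% in the KO. The distance to the nearest gene was larger for Nnat than for Mcts2 and Gnas.

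Input reads were set beside these values because each genotype had 1 input per experiment. In the H3K27ac and H3K4me1 experiments the log2 KO/WT of input reads within called regions, less the autosomal median, was between -0.03 and 0.06 for the 3 loci and for 1 Mb around them. In the H3K9me3 experiment it was 0.12 to 0.16 for 1 Mb around the loci and 0.21 over the Gnas window, with an SD over autosomes of 0.17. In the H3K27me3 experiment it was -0.37 over the Blcap window and -0.05 and -0.10 over those of H13 and Gnas. The SD over autosomes there was 0.15. The WT side of the Blcap value rests on 1 region of WT 1 with 41 input reads. The part of these input differences in the ChIP values was not tested. ChIP reads per kb were not divided by input. The fold over input weighted by covered length gave the same counts of genes without overlap for H3K4me3, H3K9me3, H3K27me3 and H3K4me1. This measure is 0 where no region was called and rises with the length called, so it is no separate check on input.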

How the data were processed

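The study profiled 5 histone marks by ChIP-seq in 3 WT and 3 KO libraries each. Per the methods and the submitters' processing notes, the authors trimmed reads (Trim Galore 0.6.6), aligned them with Bowtie2 2.4.4 to GRCm38, kept uniquely aligned reads and removed blacklisted regions, calling each library against 1 input per genotype and experiment. The methods do not describe H3K9me3. They name different antibodies for H3K27ac and H3K4me1, where the labels give the same one for both. The authors deposited H3K4me3 as MACS2 2.2.7.1 narrow peaks, with the fold enrichment (signal) over input, −log10 p-values and q-values and a score. For the other marks they deposited epic2 regions in 200 bp bins with ChIP and input counts, a p-value, an FDR, the log2 fold over input and a score. The tables hold calls, not whole libraries, so depth outside called regions is unknown.

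Overlaps were computed with Python 3.11.15, numpy 2.4.6 and pandas 2.3.3, and drawn with matplotlib 3.10.9. The arithmetic was tested on simulated data. The 5 genes and all gene lists were chosen with earlier results of these data known, so values are per library with mean and SD over 3 libraries, and no test was made. Genes named beyond the 5 are the 3 nearest in covered percent and list members called in 3 WT and 0 KO libraries; Gm20721 was named after its values were seen. Start sites within 500 bp of each other were joined, and the Gnas starts were named Nesp, XL, exon 1A and Gs alpha by their textbook order. A planned contrast of KO/WT for H3K9me3 inside and outside a nested gene could not be formed, since no KO region was called, and the WT ratio of inside to outside stands in its place. Input read totals beyond called regions were not used here.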

Additional observations from a re-analysis of the deposited data

How the results depend on the processing

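No paired analysis was possible because no result comes from a test and the replicate numbers name separate clones of each genotype. The H3K4me3 and H3K9me3 counts of 5 genes stayed at 5 and the H3K27me3 count at 3 with any 1 library left out. The H3K27ac count of 0 became 1 (lower in the KO) scaled to each library's reads in called regions. It was 2 (higher) as fold over input weighted by covered length and 1 (lower) in bp covered. With 1 library left out it was 0 to 2. The H3K4me1 count of 4 (all higher in the KO) became 2 (higher) in bp covered and was 4 to 5 with 1 library left out, the 5 being 4 higher and 1 lower without WT 3 or without KO 1. It was 3 higher and 1 lower over the body alone, and 2 higher and 1 lower with only regions at least 80% inside. In bp covered the H3K27me3 count was 2, and with only regions at least 80% inside the window the H3K9me3 count was 4. The WT H3K9me3 log2 ratio of Nnat to the rest of Blcap, 1.18, was 1.03 for the body alone and 1.39 for the body plus 2 kb, and 1.11 to 1.23 with 1 library left out. That of Mcts2 to the rest of H13, 2.37, was 2.14 and 2.67, and 2.33 to 2.41 with 1 library left out. Among values whose groups did not overlap, the sign turned for Mcts2 H3K4me1, 0.18 over the window and -0.32 over the body alone. Mcts2 H3K4me3 log2 KO/WT, 1.35 over the window, was 0.44 over the body alone and 1.67 over the body plus 10 kb. As fold over input weighted by covered length, H3K4me3 log2 KO/WT went from 1.79 to 1.09 for Nnat and for Blcap, and was 1.68 for Mcts2. Where the groups overlapped, H13 H3K27me3, -0.27, became 0.22 at an FDR of 0.01, 0.15 without WT 1 and 0.32 without KO 3, and Blcap H3K27ac, -0.29, became 0.0012 without WT 3. Gnas H3K9me3 log2 KO/WT, -4.23, was -5.43 over the body alone and -3.44 over the body plus 10 kb. Scaled to each library's reads in called regions, Gnas H3K27me3 log2 KO/WT was 0.22 in place of 0.37. The H3K9me3, H3K27me3 and H3K4me1 counts did not change under that scaling. The cause of these shifts was not tested. Start windows of 500 and 2000 bp, and an FDR of 0.01 at the starts, were added after the data were seen. With 2000 bp the H3K4me3 groups no longer overlapped at the Blcap, H13 and upstream Nespas starts, where the KO was higher, and with 500 bp they overlapped at XL and exon 1A. H3K4me3 has no read counts, so it has no value under that scaling.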
